A study of Homo sapiens with 4 samples.

Results

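RRM1, RRM2, TYMS, DUT, TK1, DTYMK, DCK, CAD and UMPS encode enzymes that make the building blocks of DNA, and they are described here in human liver cancer cells in which CDCA8 was silenced. They were chosen by gene symbol as a set of nucleotide supply enzymes. Each matched 1 entry, so they make up 9 of the 18398 transcript entries in every library, and 9 of 9 passed the filter that left 10357 genes for the test over both cell lines. Huh1 and Huh7 are established human hepatocellular carcinoma cell lines. CDCA8 encodes borealin, a subunit of the chromosomal passenger complex that steers chromosome segregation and cytokinesis. Cells of each line received either a negative control siRNA (NCsiRNA) or an siRNA against CDCA8 (CDCA8siRNA). For the RNA sequencing the study names the variant CDCA8-1 and a treatment of 48 h. It describes transfection of these lines at 15 nM with a cationic lipid. The labels name no other agent or genetic change, and 1 siRNA sequence stands for the knockdown.

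There were 4 libraries, 1 for each line and siRNA, scaled to an estimated 12197606 to 13384836 reads. A difference within a line is therefore 1 library against 1 and has no replicate error. Levels are in RPKM, a read density corrected for transcript length and for library depth, and can be compared between genes. The targeted gene CDCA8 stood at 24.1 RPKM in Huh1 with NCsiRNA and 5.86 with CDCA8siRNA, and at 51.5 and 7.36 RPKM in Huh7. In RNA from a whole culture, fewer cells that use a gene and less RNA per cell cannot be told apart.

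A cell can copy its genome only while it is supplied with every deoxynucleotide. Ribonucleotide reductase, a complex of the large subunit RRM1 and the small subunit RRM2, turns ribonucleotides into deoxynucleotides, and RRM2 is made mainly in S phase while RRM1 is steadier. DUT removes dUTP and yields dUMP, TYMS methylates dUMP to dTMP, TK1 makes dTMP from salvaged thymidine, and DTYMK phosphorylates dTMP towards dTTP. DCK salvages deoxycytidine and some other deoxynucleosides. CAD and UMPS catalyse the opening and closing steps of de novo UMP synthesis, from which pyrimidines are drawn. TYMS is a target of fluorouracil, and ribonucleotide reductase a target of hydroxyurea.

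The promoters of 4 genes are shown because they belong to RRM2 and TYMS, the genes called lower by the test given further on, to DUT, whose difference set the lines furthest apart, and to UMPS, the gene that was higher with CDCA8siRNA in both lines. Each window runs from 250 bases before to 50 after a gene start of RefSeq on build GRCh38.p14, on the plus strand, at chr2:10122489-10122788 for RRM2, chr18:657403-657702 for TYMS, chr15:48331947-48332246 for DUT and chr3:124730202-124730501 for UMPS. Where RefSeq lists several starts, the window nearest the start of the matched GENCODE transcript was taken. For RRM2 and DUT that start lies inside the whole gene, whose position is given further on. Capitals mark matches on either strand to an E2F motif (TTTCGCGC, TTTGGCGC, TTTCCCGC or TTTGCCGC), to the CCAAT box (CCAAT) or to the cell cycle genes homology region, CHR (TTTGAA or TTCGAA).
RRM2: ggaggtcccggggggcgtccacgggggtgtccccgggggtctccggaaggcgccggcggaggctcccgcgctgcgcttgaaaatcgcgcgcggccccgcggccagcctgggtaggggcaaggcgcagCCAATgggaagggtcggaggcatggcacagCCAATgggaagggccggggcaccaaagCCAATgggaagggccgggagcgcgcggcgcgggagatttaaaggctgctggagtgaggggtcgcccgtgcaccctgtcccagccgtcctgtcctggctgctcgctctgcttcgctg
TYMS: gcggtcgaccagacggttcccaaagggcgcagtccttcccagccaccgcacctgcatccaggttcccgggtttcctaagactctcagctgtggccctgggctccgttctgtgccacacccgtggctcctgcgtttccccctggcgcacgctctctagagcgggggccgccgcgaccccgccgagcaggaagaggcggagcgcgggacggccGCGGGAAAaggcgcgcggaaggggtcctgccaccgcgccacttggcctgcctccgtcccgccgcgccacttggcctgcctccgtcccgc
DUT: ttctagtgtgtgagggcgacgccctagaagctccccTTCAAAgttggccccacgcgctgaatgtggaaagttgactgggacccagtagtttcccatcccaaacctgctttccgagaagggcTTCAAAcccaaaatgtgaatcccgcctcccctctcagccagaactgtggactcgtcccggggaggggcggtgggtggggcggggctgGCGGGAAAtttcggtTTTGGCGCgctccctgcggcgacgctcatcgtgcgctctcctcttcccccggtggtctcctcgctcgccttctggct
UMPS: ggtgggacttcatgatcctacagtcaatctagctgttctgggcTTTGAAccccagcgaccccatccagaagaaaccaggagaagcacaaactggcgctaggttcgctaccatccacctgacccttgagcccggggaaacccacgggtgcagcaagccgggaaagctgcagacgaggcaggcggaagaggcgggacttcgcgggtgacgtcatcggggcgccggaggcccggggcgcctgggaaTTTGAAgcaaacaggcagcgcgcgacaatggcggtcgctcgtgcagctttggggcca
The RRM2 window held 3 CCAAT matches, at -123, -93 and -66 from the gene start, and no E2F or CHR match. TYMS held 1 E2F match, at -39. DUT held 2 E2F matches, at -42 and -27, and 2 CHR matches. UMPS held 2 CHR matches, at -207 and -7, and neither an E2F nor a CCAAT match.

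Over the 9 windows an E2F motif was found in 3 (TYMS, DUT and DCK), while 3.31% of 35116 RefSeq windows of the same length held one. CCAAT was found in 4 (RRM1, RRM2, DTYMK and CAD), against 34.6% of windows, and CHR in 4 (RRM1, DUT, DTYMK and UMPS), against 16.4%. The GC box GGGCGG, which is not in capitals, was found in 6 of 9, against 44.95%. No match overlapped a match to another motif. A match of letters is a description and not a binding site, and RRM2 and TYMS shared none of these motifs in their windows.

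The first question was whether the supply enzymes differed when CDCA8 was silenced. Of the 7 enzymes of deoxynucleotide supply and salvage, 6 (RRM1, RRM2, TYMS, DUT, TK1 and DTYMK) were lower in Huh7 with CDCA8siRNA. They stood at 64.9% to 83.2% of the control level. In Huh1, 5 of these 6 were lower, by less, and TK1 among them was at 98.4% of control, within read sampling. Of all genes, 45.5% were lower by any amount in Huh7 and 44.9% in Huh1. DCK, the other of the 7, stood at 103% of control in Huh7, and CAD and UMPS at 95.3% and 111%. In the limma test over both lines RRM2 and TYMS fell, and the other 7 did not pass, where 4.21% of all genes were called lower. No member differed by 2-fold in either line, and at most 0.873% of all genes did so in a given direction.

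**Figure D1:**
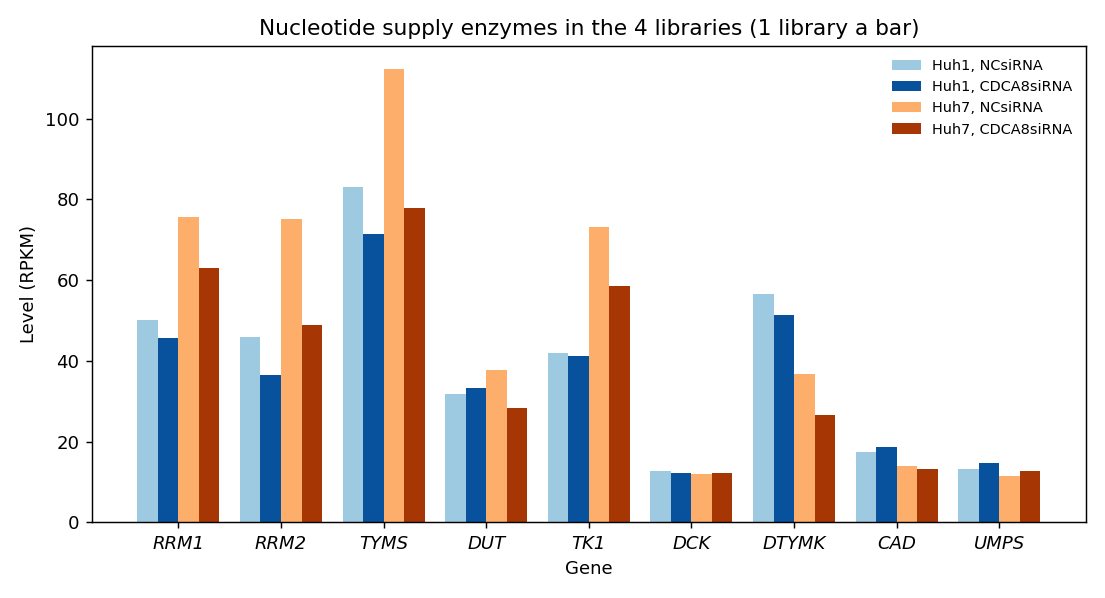
Level of each enzyme (RPKM, vertical axis) in the 4 libraries, 1 library a bar, with no error bar because each condition had 1 library. TYMS was the highest bar of every library, at 71.3 to 112 RPKM, and RRM1, RRM2, TYMS, DUT and TK1 stood higher in Huh7 with NCsiRNA than in any other library.

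RRM2, the small subunit of ribonucleotide reductase, had the largest difference of the 9 in both lines. Its level was 45.9 RPKM in Huh1 with NCsiRNA, 36.4 in Huh1 with CDCA8siRNA, 75.1 in Huh7 with NCsiRNA and 48.8 in Huh7 with CDCA8siRNA. The entry is NM_001034, with 10 exons, in a gene at chr2:10120698-10131419 on GRCh38, plus strand. For each member, the position is that of the whole gene, and the exons are those of the matched transcript. Each CDCA8siRNA library lay below the control of its own line, and Huh7 with CDCA8siRNA remained above Huh1 with NCsiRNA. On the log2(RPKM + 1) scale, which makes the differences of low genes smaller, CDCA8siRNA minus NCsiRNA was -0.33 in Huh1 and -0.61 in Huh7, with an SD from read sampling of 0.0474 and 0.0412. Among the 10357 genes tested over both lines, 6.07% in Huh1 and 2.79% in Huh7 had a difference as low.

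Over both lines the limma value of RRM2 was -0.47 ± 0.0995 (SE, 4 libraries) with a Benjamini-Hochberg adjusted p of 0.0205. This p sets the mean difference of the lines against an error drawn mostly from all genes (8.29 prior degrees of freedom). How alike the lines differed enters only through 1 residual degree of freedom. The spread between repeated transfections is not measured. The call was lost in limma without its mean-variance trend (adjusted p 0.0537), without the minimum level (0.269) and without the cell line in the model (1.00).

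RRM1, the large subunit, stayed closer to its control. It was measured at 50.1 and 45.8 RPKM in Huh1 and at 75.6 and 62.9 RPKM in Huh7, NCsiRNA first (NM_001033, chr11:4094707-4138876, plus strand, 19 exons). The differences of -0.13 in Huh1 and -0.26 in Huh7 had sampling SDs of 0.0452 and 0.0395, and over both lines the log2 value was -0.19 ± 0.0890 with an adjusted p of 0.205 by limma.

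The ratio of the subunits differed with the siRNA in both lines. Per length, RRM1 was 1.09 times RRM2 in Huh1 with NCsiRNA (95% counting interval 1.03 to 1.16) and 1.26 times with CDCA8siRNA (1.18 to 1.34). In Huh7 it was 1.01 times with NCsiRNA (0.956 to 1.06) and 1.29 times with CDCA8siRNA (1.22 to 1.37). The intervals cover counting of reads only, and within a line they did not overlap.

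RRM2B is the alternative small subunit that serves cells outside S phase and after DNA damage. It was nearly level, at 11.5 and 11.9 RPKM in Huh1 and 11.6 and 11.5 in Huh7, and did not pass the test (0.02 ± 0.105 on the log2 scale, limma adjusted p 0.911). RRM2 was 4.01 times RRM2B in Huh1 with NCsiRNA and 3.05 times with CDCA8siRNA, and 6.50 and 4.25 times in Huh7.

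TYMS, thymidylate synthase, was the highest of the 9 in every library. Its level was 83.2 RPKM in Huh1 with NCsiRNA, 71.3 in Huh1 with CDCA8siRNA, 112 in Huh7 with NCsiRNA and 78.0 in Huh7 with CDCA8siRNA (NM_001071, chr18:657604-673578, plus strand, 7 exons). The CDCA8siRNA libraries of both lines lay below both NCsiRNA libraries. The log2 difference was -0.22 in Huh1 and -0.52 in Huh7, with sampling SDs of 0.0489 and 0.0466, and 12.2% and 4.33% of the genes tested were as low. Over both lines the value was -0.37 ± 0.0964 (limma adjusted p 0.0425). The call was lost in the same settings as that of RRM2, with adjusted p of 0.0988 without the trend, 0.296 without the minimum level and 1.00 without the cell line in limma.

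The gene ENOSF1 lies on the opposite strand and overlaps 3255 bases of TYMS. Its own level was 30.2 and 26.7 RPKM in Huh1 and 32.3 and 24.2 in Huh7. Counting by strand is not stated, so reads of the overlap cannot be told apart.

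DUT, the dUTPase that feeds TYMS, was lower with CDCA8siRNA in Huh7 and not in Huh1. It was at 31.7 and 33.3 RPKM in Huh1 and at 37.7 and 28.3 RPKM in Huh7 (NM_001948, chr15:48331011-48343373, plus strand, 6 exons). The log2 difference was 0.07 with a sampling SD of 0.0685 in Huh1 and -0.40 with an SD of 0.0715 in Huh7, where 7.60% of the genes tested were as low. The limma value over both lines, -0.16 ± 0.120, did not pass (adjusted p 0.433). Processed pseudogenes of DUT and of RRM2 exist in the genome, and how reads shared with them were assigned is not given, which leaves these levels uncertain.

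TK1, the S phase thymidine kinase, was nearly level in Huh1 and lower with CDCA8siRNA in Huh7. Its level was 42.0 and 41.3 RPKM in Huh1 and 73.2 and 58.6 RPKM in Huh7 (NM_003258, chr17:78174075-78187233, minus strand, 7 exons). The difference was -0.02 in Huh1, within the sampling SD of 0.0664, and -0.32 in Huh7 with an SD of 0.0558. Over both lines it did not pass (-0.17 ± 0.0997, limma adjusted p 0.325). TK2, the mitochondrial thymidine kinase, was low at 1.59 to 2.01 RPKM, and TK1 was between 25.9 and 36.5 times as high.

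DTYMK, thymidylate kinase, came after RRM2 and TYMS in the size of its Huh7 difference. It was at 56.4 and 51.3 RPKM in Huh1 and 36.8 and 26.5 RPKM in Huh7 (NM_012145, chr2:241675742-241686991, minus strand, 5 exons). The differences of -0.14 and -0.46 had sampling SDs of 0.0675 and 0.0916. Its limma value of -0.30 ± 0.104 had an unadjusted p of 0.0185 and an adjusted p of 0.107, so it was not called. RRM2, TYMS and DTYMK were the 3 members at an unadjusted p under 0.05, a share near the background, since 2694 genes, or 26.0% of those tested, were under it.

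DCK, which salvages deoxycytidine, showed no difference beyond read sampling. It was at 12.8 and 12.2 RPKM in Huh1 and at 11.8 and 12.2 RPKM in Huh7 (NM_000788, chr4:70992538-71030914, plus strand, 7 exons), with log2 differences of -0.06 and 0.04 against sampling SDs of 0.0890 and 0.0942. It rested on 392 to 464 estimated reads a library, the fewest of the 9 in Huh1, so a small difference was not detectable at this depth. DCK was 0.304 times TK1 in Huh1 with NCsiRNA and 0.296 times with CDCA8siRNA, and 0.162 and 0.209 times in Huh7.

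CAD and UMPS, members at either end of de novo UMP synthesis, were at or above 95.3% of control in both lines. CAD, which carries several consecutive activities of the route in 1 protein, was at 17.4 and 18.7 RPKM in Huh1 and 13.8 and 13.2 RPKM in Huh7 (NM_004341, chr2:27217390-27243943, plus strand, 44 exons). UMPS, which makes UMP from orotate, was at 13.1 and 14.7 RPKM in Huh1 and 11.5 and 12.7 RPKM in Huh7 (NM_000373, chr3:124730366-124749273, plus strand, 6 exons). UMPS was thus at 112% and 111% of control, with log2 differences of 0.15 and 0.14 and sampling SDs of 0.0540 and 0.0598. Neither gene passed limma, with 0.02 ± 0.104 for CAD (adjusted p 0.934) and 0.15 ± 0.103 for UMPS (adjusted p 0.414).

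DHODH, the mitochondrial enzyme that acts between CAD and UMPS, did pass. It fell, with 8.20 and 5.68 RPKM in Huh1 and 11.1 and 7.74 RPKM in Huh7, or 69.3% and 69.7% of control (-0.47 ± 0.110 on the log2 scale over both lines, limma adjusted p 0.0304).

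**Figure D2:**
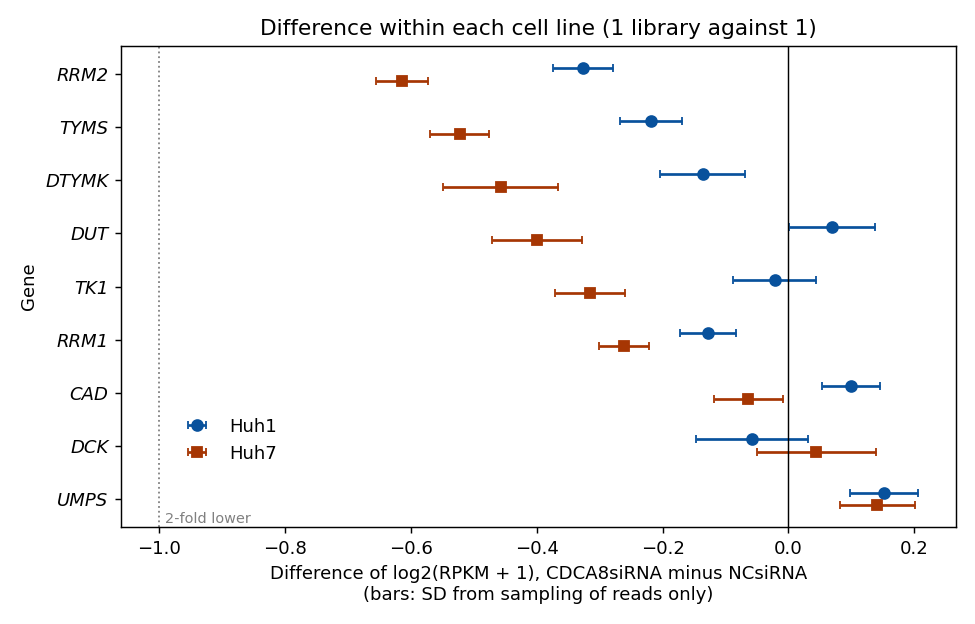
Difference of log2(RPKM + 1), CDCA8siRNA minus NCsiRNA (horizontal axis), for each enzyme in Huh1 (circles) and Huh7 (squares), 1 library against 1, with bars of 1 SD from read sampling only. RRM2 lay lowest in both lines, at -0.33 and -0.61, no point reached the dotted line of 2-fold, and the Huh7 point was left of the Huh1 point for every gene but DCK.

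Counted together, 6 of 9 members were lower in Huh1, where 44.9% of 10940 genes were, and 7 of 9 were lower in Huh7, where 45.5% of 11565 genes were. Higher by any amount were 3 of 9 in Huh1, against 55.1%, and 2 of 9 in Huh7, against 54.5%. None was 2-fold lower, against 0.174% of genes in Huh1 and 0.7% in Huh7, or 2-fold higher, against 0.32% and 0.873%. Limma called 2 of 9 lower, against 4.21% of 10357 genes, and 0 of 9 higher, against 6.03%. The median difference of the 9 was -0.06 in Huh1 and -0.32 in Huh7, beside 0.02 and 0.03 over all genes tested. For the 7 enzymes of deoxynucleotide supply and salvage it was -0.13 and -0.40. Leaving out DCK, a grouping made with the values known, it was -0.13 and -0.43. Summed over all 9, the level was 353 RPKM with NCsiRNA and 325 with CDCA8siRNA in Huh1, and 448 and 341 in Huh7. Over the 6 without DCK, all of them lower in Huh7, it was 309 and 279 in Huh1, and 411 and 303 in Huh7.

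The lines were then compared with each other. With NCsiRNA, Huh7 had 1.75 times the TK1, 1.64 times the RRM2, 1.51 times the RRM1 and 1.35 times the TYMS level of Huh1. DTYMK stood the other way, at 0.651 times its Huh1 level, as did CAD at 0.796 times. Over both siRNAs limma called 4 of 9 higher in Huh7 (TK1, RRM2, RRM1 and TYMS), against 39.1% of all genes, and 2 of 9 lower (DTYMK and CAD), against 28.7%, so the members' shares were near those of all genes.

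On the log2 scale, Huh7 minus Huh1 was 0.64 ± 0.0997 for TK1, 0.56 ± 0.0995 for RRM2 and 0.52 ± 0.0890 for RRM1, with limma adjusted p of 0.000322, 0.000796 and 0.000616. It was -0.77 ± 0.104 for DTYMK (adjusted p 0.000133) and -0.39 ± 0.104 for CAD (adjusted p 0.00786). TYMS was at 0.28 ± 0.0964 (limma adjusted p 0.0274), and missed the threshold with upper quartile scaling (0.19, adjusted p 0.0944) and without the trend (adjusted p 0.0648). UMPS, at -0.19 ± 0.103 (limma adjusted p 0.130), was called lower in Huh7 with upper quartile scaling (-0.27, adjusted p 0.0392) and with quantile normalization (-0.30, adjusted p 0.0250). DUT and DCK did not pass, with adjusted p of 0.962 and 0.690 in limma.

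The difference between the lines was smaller with CDCA8siRNA than with NCsiRNA for the genes that Huh7 had in excess. It went from 0.70 to 0.41 on the log2 scale for RRM2, from 0.79 to 0.50 for TK1 and from 0.43 to 0.13 for TYMS. For RRM1 it was 0.58 and 0.45, and for DUT 0.24 and -0.23. For the genes called lower in Huh7, it went from -0.61 to -0.93 for DTYMK and from -0.31 to -0.47 for CAD. For UMPS it was -0.18 and -0.19.

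**Figure D3:**
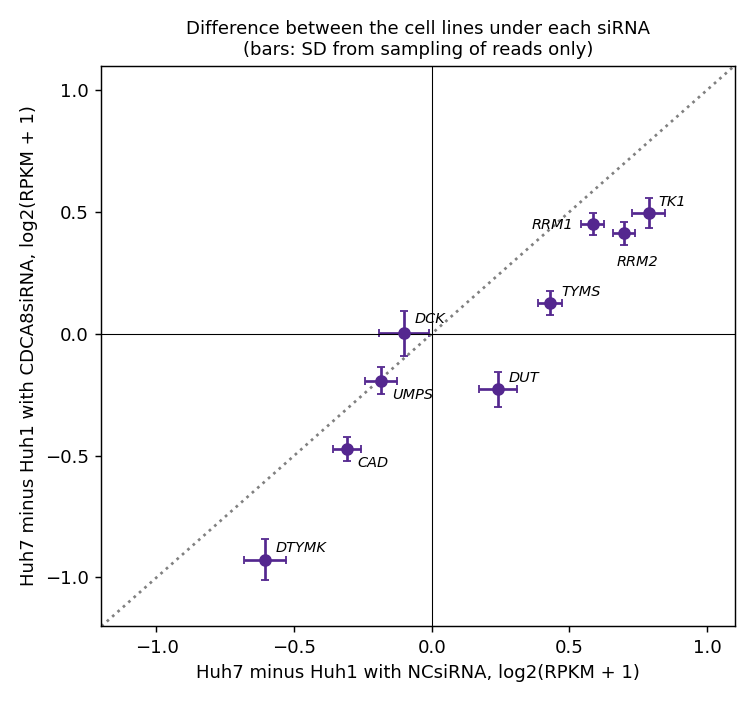
Difference between the lines, Huh7 minus Huh1 in log2(RPKM + 1), with NCsiRNA (horizontal axis) and with CDCA8siRNA (vertical axis), 1 point a gene, with bars of 1 SD from read sampling only and a dotted line where both are equal. All points but DCK lay below the dotted line, DUT crossed 0 from 0.24 to -0.23, and DTYMK lay lowest at -0.61 and -0.93.

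The same values can be read as a response that was more negative in Huh7. The log2 difference was below that of Huh1 for 8 of 9 members, against 51.0% of all genes. Huh7 minus Huh1 in response was -0.47 for DUT, -0.32 for DTYMK, -0.30 for TYMS, and -0.29 for both RRM2 and TK1, with sampling SDs of 0.0990, 0.114, 0.0676, 0.0628 and 0.0867. It was -0.13 for RRM1 (SD 0.0601), -0.16 for CAD (SD 0.0718) and -0.01 for UMPS (SD 0.0805). With 1 library per condition no test of this difference between lines exists. CDCA8 itself was left at 24.3% of control in Huh1 and 14.3% in Huh7, and the part of this gap in the responses was not tested. Lower in both lines were 5 of 9 members (RRM1, RRM2, TYMS, TK1 and DTYMK), against 30.5% of genes.

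The rest of the pathway was read from lists of genes with related roles. Among 23 tested genes of a list of other pyrimidine synthesis, kinase and deoxynucleotide genes, DHODH alone was called. This share was near that of all genes, of which 4.21% were called lower. The medians of the list were -0.00 in Huh1 and -0.04 in Huh7. CTP synthase (CTPS) was at 37.3 and 40.2 RPKM in Huh1 and 42.0 and 43.1 in Huh7. The nucleotide kinases NME1 and CMPK1 and the deaminase DCTD did not pass either, with limma adjusted p of 0.311, 0.357 and 0.508. SAMHD1, which breaks down deoxynucleotides outside S phase, was at 14.1 and 13.3 RPKM in Huh1 and 13.3 and 11.4 RPKM in Huh7 (adjusted p 0.448 by limma). DGUOK, the mitochondrial deoxyguanosine kinase, was at 29.1 and 30.7 RPKM in Huh1 and 44.9 and 44.5 RPKM in Huh7.

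Among 14 tested genes of the thymidylate cycle and folate list, 1 was called lower, against 4.21% of all genes. SHMT2, the mitochondrial serine hydroxymethyltransferase, fell, with 108 and 87.3 RPKM in Huh1 and 76.8 and 61.5 RPKM in Huh7 (-0.31 ± 0.0829, limma adjusted p 0.0454). SHMT1, its cytosolic counterpart, was at 47.3 and 38.1 RPKM in Huh1 and 21.2 and 17.96 RPKM in Huh7 and was not called (limma adjusted p 0.109). The median of the list was 0.02 in Huh1 and -0.08 in Huh7.

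Among 17 tested purine genes 3 were called lower, against 4.21% of all genes. ADA, adenosine deaminase, fell, with 7.95 and 5.10 RPKM in Huh1 and 7.68 and 3.83 RPKM in Huh7 (-0.70 ± 0.125, limma adjusted p 0.0112). PPAT, which opens de novo purine synthesis, and IMPDH2, which turns IMP towards GMP, fell by 0.41 ± 0.106 and 0.39 ± 0.0882 (limma adjusted p 0.0403 and 0.0261). GART, which acts at several later steps, was at 29.4 and 27.6 RPKM in Huh1 and 30.1 and 29.2 in Huh7. The median of the list was -0.06 and -0.14.

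Nucleoside transport, salvage and breakdown gave 13 tested genes, none called lower and 1 called higher, against 4.21% and 6.03% of all genes. NT5E, the surface nucleotidase CD73 that releases adenosine from AMP, rose, with 7.29 and 13.3 RPKM in Huh1 and 3.63 and 6.59 RPKM in Huh7 (0.75 ± 0.113, limma adjusted p 0.00568). The median of the list was 0.05 in Huh1 and -0.13 in Huh7.

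Genes of S phase had the list median nearest to that of the supply enzymes in Huh7, at -0.28, with -0.05 in Huh1. Of 20 tested, 13 were lower with CDCA8siRNA in Huh1 and 18 in Huh7, against 44.9% and 45.5% of all genes. The siRNA difference was below that of Huh1 in Huh7 for 20 of 20, against 51.0% of all genes. Limma called 2 of 20 lower, against 4.21%. PCNA, the sliding clamp of DNA polymerase, fell, with 109 and 72.8 RPKM in Huh1 and 194 and 71.9 RPKM in Huh7 (-0.99 ± 0.161, limma adjusted p 0.00785). SLBP, which binds histone mRNA, fell, with 32.7 and 17.3 RPKM in Huh1 and 79.3 and 33.5 RPKM in Huh7 (-1.05 ± 0.107, limma adjusted p 0.00129). MCM6, a helicase subunit, was not called, at 35.4 and 34.0 RPKM in Huh1 and 61.7 and 37.7 RPKM in Huh7 (named after its values were seen).

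Genes of G2 and mitosis had medians of -0.18 and -0.24. Of 18 tested, 5 were called lower, against 4.21% of all genes, and 1 higher, against 6.03%. NUSAP1, a spindle protein, fell, with 37.7 and 17.4 RPKM in Huh1 and 95.3 and 32.8 RPKM in Huh7 (-1.29 ± 0.115, limma adjusted p 0.000870). PLK1, a mitotic kinase, fell by 0.55 ± 0.0933 on the log2 scale (limma adjusted p 0.00938), and TOP2A, AURKB and UBE2C were the other genes called lower. AURKB and BIRC5 are both partners of CDCA8 in the chromosomal passenger complex. Unlike AURKB, BIRC5 was called higher (0.48 ± 0.128, limma adjusted p 0.0450). Its difference was larger in Huh7, with 26.6 and 30.8 RPKM in Huh1 and 39.3 and 67.2 RPKM in Huh7.

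**Figure D4:**
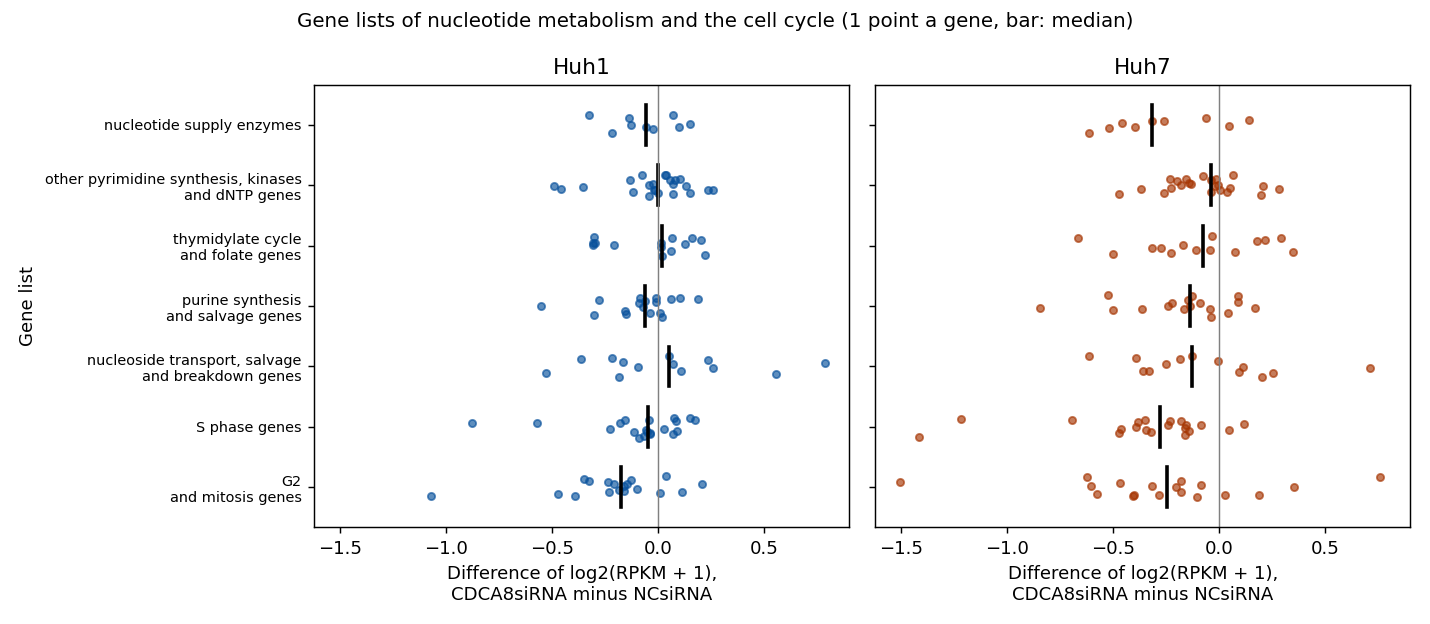
Difference of log2(RPKM + 1), CDCA8siRNA minus NCsiRNA (horizontal axis), in Huh1 and Huh7 for the genes of each list that were tested, 1 point a gene with the median as a black bar, 1 library against 1. The medians of the supply enzymes were -0.06 in Huh1 and -0.32 in Huh7, near those of the S phase genes at -0.05 and -0.28.

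Levels of cell type markers differed with the siRNA as well. The hepatocyte marker ALB was at 721 to 3447 RPKM, while TTR was at 5.10 and 4.49 RPKM in Huh1 and 29.3 and 48.5 in Huh7. Of 12 such markers 8 were called lower, against 4.21% of all genes. Their median difference was -0.36 in Huh1 and -0.48 in Huh7, below the -0.06 and -0.32 of the supply enzymes. The summed level of the 12 was 6638 RPKM with NCsiRNA and 5645 with CDCA8siRNA in Huh1, and 3567 and 2562 in Huh7. The 6 fibroblast and stellate markers summed to 12.1 and 25.9 RPKM in Huh1 and to 284 and 377 in Huh7, with LUM called higher (0.72 ± 0.135, limma adjusted p 0.0130) and DCN at 0 in both Huh1 libraries and at most 0.406 RPKM in Huh7. The 5 leukocyte markers summed to 23.8 and 17.6 RPKM in Huh1 and to 3.99 and 4.51 in Huh7, most of it CD68, with PTPRC at 0.417 RPKM or less. The 3 endothelial markers measured summed to 0.0247 RPKM at most, and the 4 cholangiocyte markers to 114 and 123 RPKM in Huh1 and to 164 and 168 in Huh7. The part of these markers in the values of the supply enzymes was not tested.

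The genes whose profile over the 4 libraries lay closest to the median profile of the 9 are in none of the lists above. After centring each gene on its own mean, the members' median profile was -0.03 in Huh1 with NCsiRNA, -0.00 in Huh1 with CDCA8siRNA, 0.20 in Huh7 with NCsiRNA and -0.03 in Huh7 with CDCA8siRNA. Closest to it, by Euclidean distance over these 4 values, were MRPL42 (0.0749), MLL (0.0765), TMEM48 (0.0782), MIS12 (0.0830) and ACAA1 (0.0857). The members themselves lay further from it, at 0.171 (DUT) to 0.895 (DTYMK), so closeness to the median profile is not likeness to each enzyme. MRPL42 was at 29.2 and 29.5 RPKM in Huh1 and 33.6 and 29.1 in Huh7. None of the 5 was called by limma, with adjusted p of 0.446 to 0.715, and 4 libraries are too few to read more from the order.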

How the data were processed

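RNA of Huh1 and Huh7 cells was measured in 4 libraries, grouped by cell line and siRNA from their labels. The authors deposited RPKM values for 18398 RefSeq transcripts per library without naming the unit. RPKM was deduced from the numbers themselves: times the transcript length, many low values matched what 1 read is worth in that library. Other low values were not whole multiples of it. The submitters' processing notes name CASAVA 1.8.2, TopHat2 2.0.9 and hg19, with no role. The counter, the annotation, any filter and the use of strand are not given in the sources used here. The reads that each library was scaled to were estimated from the worth of 1 read, at 12197606 to 13384836. Every SD from read sampling rests on this estimate. Reads behind a gene were estimated from its RPKM and the GENCODE release 29 length, matched for 17768 entries, and the SD from read sampling depends on that length and covers counting error only.

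Differences are in log2(RPKM + 1), with a pseudocount of 1 RPKM, over genes with at least 1 RPKM in 1 library of the pair. The study's threshold of 2-fold was kept. Its test is not described in enough detail to repeat with 1 library per condition. For this reason a limma 3.58.1 model (R 4.3.3, eBayes with trend) took all libraries together with siRNA and cell line as terms. This left 1 residual degree of freedom, to which eBayes added 8.29 prior degrees of freedom from all genes. The limma p-values were adjusted by Benjamini and Hochberg at 0.05 over 10357 genes with at least 1 RPKM in a library of each line. The steps were tested on simulated data, where limma also called some unchanged genes, so adjusted p may understate false calls. Python 3.11.15, numpy 2.4.6, pandas 2.3.3, scipy 1.17.1 and matplotlib 3.10.9 served for the rest. Gene positions are those of whole genes in GENCODE on GRCh38, exons those of the matched transcript, and promoters those of RefSeq on GRCh38.p14. The deposited values carry no coordinates.

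The members, lists, markers and motifs were chosen with earlier results of these data known. The text names the 9 members, CDCA8, 12 fixed neighbours, up to 3 called genes with the largest difference from each list, and the 5 genes closest in profile. Markers and MCM6, ENOSF1 and the other called list members are named beside these for context. Alternatives were a pseudocount of 0.1 RPKM, no minimum, a minimum of 5 RPKM, upper quartile scaling, quantile normalization, limma without the cell line and limma without the trend. TXNRD1, SLC46A1 and PECAM1 were not analysed here, and CTP synthase was found as CTPS. A further fixed neighbour is not reported here.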

Additional observations from a re-analysis of the deposited data

Results flagged for a closer look

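DUT, DCK and CAD had differences of opposite sign in the lines, and in each case the difference between lines was not tested, because each line had 1 library against 1. DUT was 0.07 in Huh1 and -0.40 in Huh7 on the log2(RPKM + 1) scale, so Huh7 minus Huh1 was -0.47 with a sampling SD of 0.0990. CAD was 0.10 in Huh1 and -0.06 in Huh7, which gives -0.16 with an SD of 0.0718. DCK was -0.06 in Huh1 and 0.04 in Huh7, which gives 0.10, less than its SD of 0.130.

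Among the neighbours in the pathway, RRM2B (-0.063) and DGUOK (-0.087) also had opposite signs, and Huh7 minus Huh1 is given for each in parentheses. Of the genes closest to the median profile of the enzymes, MRPL42 (-0.22), MLL (-0.21), TMEM48 (-0.28) and ACAA1 (-0.29) were slightly higher in Huh1 and lower in Huh7. Their choice fixes this shape. These differences between lines were not tested either.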

How the results depend on the processing

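The within-line differences of the 9 enzymes kept their sign in 54 of 54 comparisons, over a pseudocount of 0.1 RPKM, upper quartile scaling and quantile normalization. The calls of RRM2 and TYMS were kept with a pseudocount of 0.1 RPKM, a minimum of 5 RPKM, upper quartile scaling and quantile normalization. Without the minimum level limma called 0 members and 0 genes lower and 0 genes higher (2440 genes and 2 members at an unadjusted p under 0.05). Without the cell line as a term it called 0 members and 0 genes lower and 0 higher (89 genes and 0 members at an unadjusted p under 0.05), as the difference between lines then enters the error. Without the trend it called 267 genes and 0 members lower, and the cause was not tested (2614 genes and 3 members at an unadjusted p under 0.05). With a pseudocount of 0.1 RPKM, 57 genes were 2-fold lower and 107 higher in Huh1, and 153 and 269 in Huh7, beside 19, 35, 81 and 101. With quantile normalization 21 were 2-fold higher in Huh1. The siRNA effect of CAD became -0.0084 with quantile normalization, and the cell line effect of DUT became -0.077 with upper quartile scaling and -0.091 with quantile normalization. These scalings moved the median cell line effect over all genes by -0.08 and -0.10. The cell line was the pairing in limma, and its removal is given above. The labels give no replicate numbers, so no other pairing was made. With 1 library per condition no replicate could be left out. The depth limits what can be seen in DCK most.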
